A study of Rattus norvegicus with 3 samples.

Results

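Oxidative phosphorylation genes, which encode the mitochondrial enzymes that turn the energy of nutrients into ATP, were examined complex by complex in rat kidney inner medulla. Members were the genes with a single symbol in the array's probe annotation that begins with Nduf, Sdha to Sdhd, Uqcr, Cox and a digit, Cyc1 or Atp5. This rule gave 31 genes, measured by 34 probes, out of 4390 named genes and 5760 probes. Complex I (Nduf) had 5 genes, complex III (Uqcr, Cyc1) had 1, complex IV (Cox) had 11 and complex V (Atp5) had 14. No probe symbol began with Sdha to Sdhd, so complex II was not analysed here, and complex III rests on a single gene. The rule takes in 2 pseudogenes (Ndufs6-ps1, Cox6c-ps1), 2 assembly factors (Ndufaf3, Cox17) and an inhibitor (Atp5if1), which leaves 26 structural subunits of the enzymes.

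The study set rats treated with lithium for 1 month against control rats on 3 two-colour arrays. Every array is titled Li-NDI, which the title does not spell out and which likely stands for lithium-induced nephrogenic diabetes insipidus. On each array, lithium RNA was labelled red and control RNA green. Arrays 1 and 2 each carried pools of 2 rats in either channel, whereas array 3 carried single rats (1 in either channel). The strain, sex and age of the rats and the dose and route of lithium are not given in the sources used here. Values are log ratios of unstated base, and a fold is therefore printed both in base 10 and in base 2. A positive ratio was taken to mean more transcript with lithium, which is likely because the labels make lithium RNA channel 1. The direction was not settled, and a reversed one would turn every sign below. Because lithium RNA was red on every array, a dye effect and the treatment cannot be told apart. In RNA of a whole tissue, fewer cells of a type and less RNA per cell cannot be told apart either.

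The respiratory chain passes electrons from NADH (complex I) and succinate (complex II) through complex III to oxygen at complex IV, also called cytochrome c oxidase. Complexes I, III and IV pump protons across the inner mitochondrial membrane, and ATP synthase, complex V, lets them flow back through a rotating ring to make ATP. In the kidney, oxygen is scarce in the inner medulla, where collecting duct cells are known to rely largely on glycolysis. Proximal tubule and thick ascending limb cells, which lie outside this zone, are packed with mitochondria. Nuclear genes of the chain are known to share promoter elements for the transcription factors NRF1, GABPA (of the ETS family), ERR and YY1.

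Promoters were available for 26 of the 31 genes, from RefSeq on build GRCr8, and the 250 bases before each gene's start were searched on both strands for 6 motifs. The NRF1 core GCATGCG was found in 4 of the 26, all of complex V (Atp5mc2, Atp5me, Atp5pf, Atp5po), a share of 15.4%, against 3.24% of the 24206 genes with a single promoter entry and 3.63% of the 3389 of these on the array. Genes with several entries were left out of these shares, since every member found had 1. Complex V is also the largest group, with 14 of the 31 members, and whether NRF1 matches favour a complex was not tested. The ETS core CCGGAAG was found in 6 (23.1%, against 8.06% and 8.82%), and the ERR core AAGGTCA in 4 (15.4%, against 3.61% and 2.77%). The YY1 core ATGGCGG was found in 2 (7.69%, against 2.53% and 2.80%). The GC box GGGCGG was found in 12 (46.2%, against 33.6% and 51.3%), and the TATA box TATAAA in 1, Cox8b (3.85%, against 13.3% and 11.7%). At least 1 NRF1, ETS or ERR match stood in 11 of the 26 promoters. No share over all genes was computed for this combined count, so whether it is high was not tested. Motifs overlapped only where the NRF1 core, nearly its own reverse complement, matched on both strands. A match describes the letters only and says nothing of binding in these rats.

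Stretches before the start of 4 genes are shown 5′ to 3′ on the gene's strand, with matches to the 6 motifs in capitals. Cox8a and Cox8b encode the common and the muscle form of the same subunit and had the highest and the lowest ratio of complex IV, Atp5mc3 had the highest ratio of complex V, and Atp5me carries both an NRF1 and an ETS match. The stretches lie at chr1:213833624-213833873, minus strand (Cox8a), chr1:205408274-205408523, minus strand (Cox8b), chr3:79220665-79220914, minus strand (Atp5mc3) and chr14:1464610-1464859, plus strand (Atp5me). Cox8a holds 2 ETS matches on the reverse strand, 57 to 51 and 19 to 13 bases before the start. Cox8b holds a reverse GC box followed by the TATA box, 39 to 34 bases before the start. In Atp5mc3 the single match is a reverse ERR core 57 to 51 bases before the start. The overlapping NRF1 matches of Atp5me begin 75 and 74 bases before the start, followed by a GC box and an ETS match, both reversed.
Cox8a: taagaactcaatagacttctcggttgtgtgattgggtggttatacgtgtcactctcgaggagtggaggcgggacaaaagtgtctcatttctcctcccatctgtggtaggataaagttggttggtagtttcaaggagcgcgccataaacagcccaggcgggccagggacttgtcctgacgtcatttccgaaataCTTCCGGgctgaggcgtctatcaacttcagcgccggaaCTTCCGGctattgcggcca
Cox8b: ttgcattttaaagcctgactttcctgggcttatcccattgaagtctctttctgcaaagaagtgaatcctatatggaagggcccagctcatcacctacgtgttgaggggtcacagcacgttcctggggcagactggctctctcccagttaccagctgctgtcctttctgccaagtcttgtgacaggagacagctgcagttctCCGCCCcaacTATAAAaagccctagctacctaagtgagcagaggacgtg
Atp5mc3: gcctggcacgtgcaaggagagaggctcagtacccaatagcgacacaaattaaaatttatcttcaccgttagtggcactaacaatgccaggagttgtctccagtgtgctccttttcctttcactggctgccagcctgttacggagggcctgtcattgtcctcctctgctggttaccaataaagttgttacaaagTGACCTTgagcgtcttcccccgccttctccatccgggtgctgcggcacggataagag
Atp5me: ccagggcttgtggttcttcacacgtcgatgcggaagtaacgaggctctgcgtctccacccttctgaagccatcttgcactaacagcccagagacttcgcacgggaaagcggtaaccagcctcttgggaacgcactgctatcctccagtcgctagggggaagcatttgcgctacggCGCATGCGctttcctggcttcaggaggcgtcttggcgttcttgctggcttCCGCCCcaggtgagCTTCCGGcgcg

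Before any centring, the columns had medians of −0.02, −0.04 and 0.00, and 3819 genes or unnamed probes had a value on all 3 arrays. Their ratios correlated across features with Pearson's r of 0.46 between arrays 1 and 2, 0.48 between arrays 1 and 3 and 0.16 between arrays 2 and 3. Array 3 had 25.6% empty probes against 3.09% and 1.35% on arrays 1 and 2. Of the 34 member probes 1 was empty, that of Cox8b on array 3. Probes empty on array 3 read lower on the other arrays, with centred medians of −0.08 and −0.18 on arrays 1 and 2, against 0.01 and 0.04 for probes measured on array 3. Markers of the collecting duct's principal cells, the labelled tissue's main epithelium, were all 9 measured, with mean ratios from 0.0067 to 0.49 and a median of 0.13. Of these, 8 were above 0 on all 3 arrays, against 24.1% of all features. Among the 8 was the water channel gene Aqp2, at 0.11, 0.26 and 0.14. Aqp3 read −0.02, 0.06 and −0.02. What these signs mean for the unsettled direction of the ratios was not tested. Spot intensities were not used here, so a ratio says nothing of how abundant a transcript was.

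No oxidative phosphorylation gene passed the test, and most of them lay slightly above 0. Each array was centred on its median, probes of a gene were averaged, and limma's moderated test with Benjamini-Hochberg adjustment over 3819 features called 17 features (0.445%; 0.236% higher and 0.209% lower), of which 0 were members. Cox8b, without a value on array 3, was left out of this fit, so 30 members were tested. At an unadjusted p of 0.05, limma's test took in 2 of the 30 members, Cox8a and Atp5mc3, against 17.2% of all features. With limma's array weights 10 members passed, all higher, against 15.2% of all features called higher and 27.6% called in either direction. That setting gave array 1 a weight of 4.52, against 0.371 and 0.596 for arrays 2 and 3. None of the 30 passed in the other fits, which varied the centring, the scale, the choice of probe and the variance prior or left out an array.

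Of the 30 tested members 25 had a mean ratio above 0 and 5 below, against 55.7% of all features above 0 and 42.7% below. Without centring, 22 members lay above 0 and 8 below, and 45.2% of all features lay above. The members' median was 0.053 (1.13-fold in base 10, 1.04-fold in base 2), and that of all features was 0.013. On arrays 1, 2 and 3 the members' medians were 0.05, 0.06 and 0.02, and those of all features were 0.01, 0.04 and 0.00. The gap between members and all features was thus 0.04 on array 1 and 0.02 on each of the others. Ratios were above 0 on all 3 arrays for 15 members, against 24.1% of all features, and below 0 on all 3 for 2, Ndufaf3 and Cox4i1, against 14.6%. The means of the 30 tested members ran from −0.09 to 0.12, and those of all features from −0.60 to 0.53. These ranges are not comparable, since a range widens with the number of features. Quartiles of the means were 0.019 and 0.07 for the tested members and −0.04 and 0.06 for all features. Cox8b, which was not tested, averaged −0.44 over 2 arrays. The typical gene's SD over the 3 arrays was 0.055 among members and 0.071 among all features. Which members read high differed between arrays: over the 30 members, Pearson's r was −0.07 between arrays 1 and 2, 0.46 between arrays 1 and 3 and 0.06 between arrays 2 and 3, a description across genes that share each array's dye and centring.

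**Figure D1:**
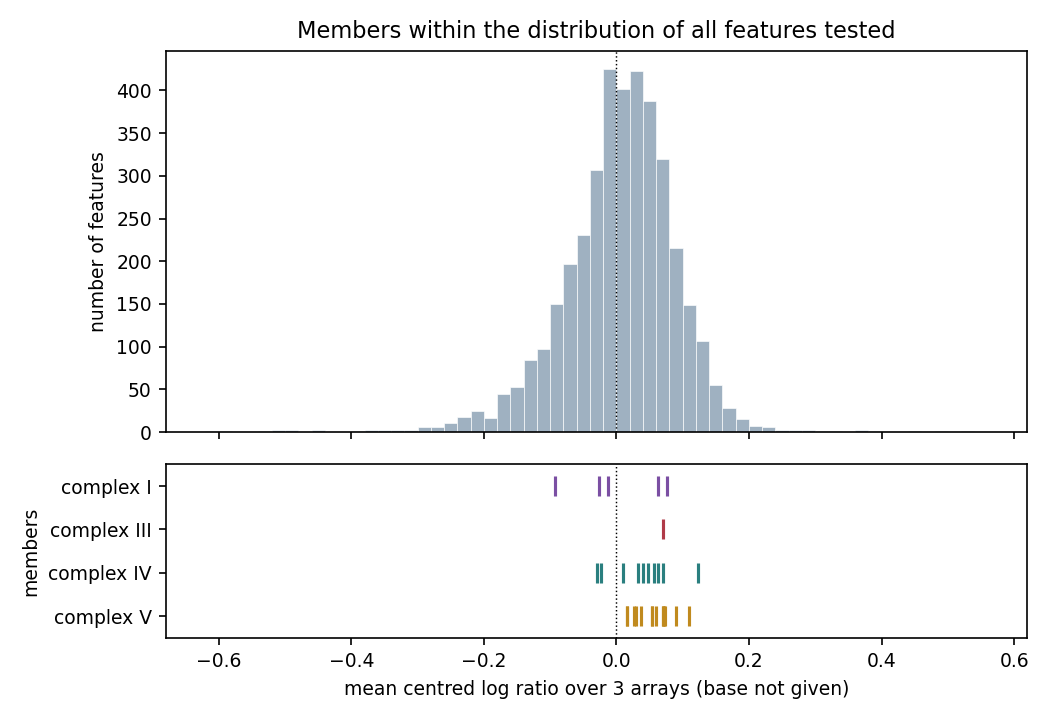
Mean centred log ratio over the 3 arrays (base not given, x axis) of the 3819 features tested, as a histogram with counts on the y axis, and of the 30 tested members as ticks by complex below it. All 14 ticks of complex V lie to the right of 0, between 0.017 and 0.11, while 3 of the 5 of complex I lie to the left (without centring, 12 of the 14 lie to the right).

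The median of complex V was 0.057, that of complex IV 0.044, and that of complex I −0.013, while the single gene of complex III stood at 0.07. On array 1 the medians were 0.075 for complex V, 0.045 for complex IV and 0.01 for complex I. On array 2 they were 0.07, 0.035 and 0.08 in the same order, and on array 3 they were 0.02, 0.035 and −0.03. The order of the complexes thus differed from array to array: complex I was lowest on arrays 1 and 3 and highest of these 3 on array 2. The SD of the array medians was 0.0058 for complex IV, 0.030 for complex V and 0.056 for complex I. These medians rest on unlike numbers of tested genes, 10, 14 and 5 in the same order, which limits the comparison. Under other settings the complex IV median ran from 0.024 without centring to 0.059 without array 2. Differences between complexes were not tested.

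**Figure D2:**
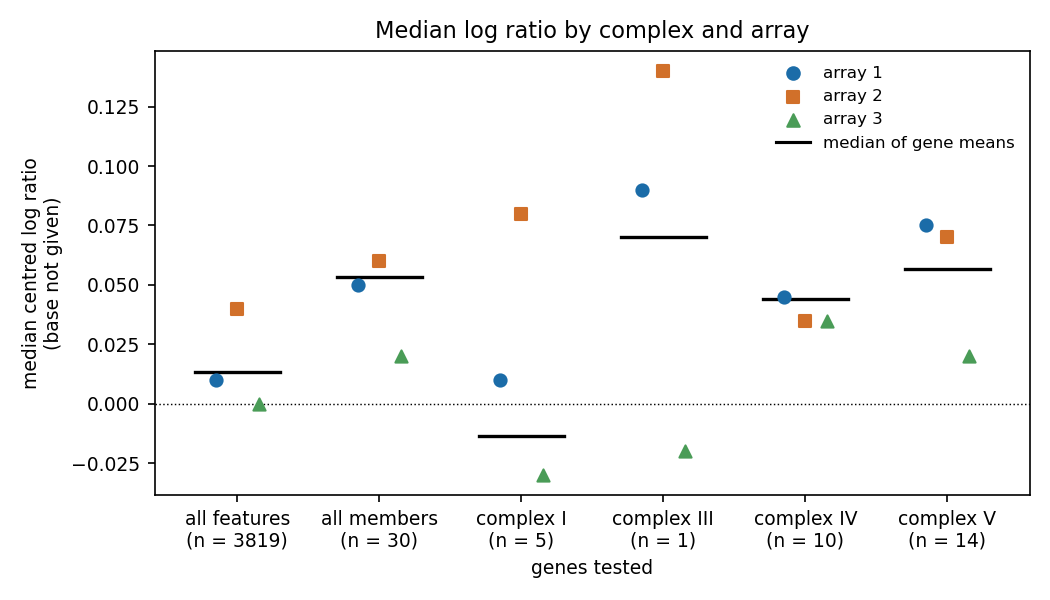
Median centred log ratio (base not given, y axis) of all features, all members and each complex (x axis, with the number of genes tested), with a coloured point for each array and a black bar for the median of the gene means. The points of complex IV lie between 0.035 and 0.045 and those of complex I between −0.03 and 0.08, and array 3 has the lowest or equal lowest point in every column.

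Complex I, NADH dehydrogenase, is the largest enzyme of the chain, and the arrays held 3 of its structural subunits, all of the arm that reaches into the matrix. Ndufv2, an iron-sulfur subunit at the site of NADH oxidation, read 0.04, 0.05 and 0.14 on arrays 1, 2 and 3. All 3 values lay above 0, and the mean was 0.077 ± 0.055 (SD, n = 3; limma adjusted p = 0.387). Ndufa5, an accessory subunit, read 0.01, 0.08 and −0.17, so that array 3 pulled its mean to −0.027 ± 0.13 (limma adjusted p = 0.836). Ndufv3, a small accessory subunit next to Ndufv2, read −0.13, 0.12 and −0.03, with a mean of −0.013 ± 0.13 (limma adjusted p = 0.926). Neither of these accessory genes kept its sign across arrays: without array 3 the mean of Ndufa5 was 0.045, and without array 1 that of Ndufv3 was 0.045.

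Ndufaf3, an assembly factor that helps to build complex I and is not part of the finished enzyme, had the lowest mean of the 30 tested members. It read −0.045, −0.07 and −0.165, all below 0, with a mean of −0.093 ± 0.063 (SD, n = 3; limma adjusted p = 0.321, 95% interval −0.19 to 0.0083). Its probes, both designed on 1 accession, agreed on array 3 at −0.18 and −0.15 and differed on array 2, where they read 0.02 and −0.16. The pseudogene Ndufs6-ps1, whose probe may also bind its parent Ndufs6, read 0.09, 0.08 and 0.02 and had a mean of 0.063 ± 0.038 (limma adjusted p = 0.452). With assembly factor and pseudogene left out, a choice made after the values were seen, the median of complex I stayed at −0.013 over 3 genes.

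Complex III was represented by Uqcrfs1, the Rieske iron-sulfur protein that takes electrons from ubiquinol. It read 0.09, 0.14 and −0.02, above 0 on the arrays of pooled rats and just below on array 3. Its mean was 0.07 ± 0.082 (SD, n = 3; limma adjusted p = 0.464), so the spread between arrays was larger than the mean.

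Among the 11 complex IV genes, 10 were tested, 8 of them above 0 and 2 below, against 55.7% of all features above 0. Of these 10, 7 were above 0 on all 3 arrays, against 24.1% of all features. Nuclear subunits of complex IV surround the catalytic core, which mitochondrial DNA encodes, and several exist in a common and a muscle form. Cox8a, the common form of a small subunit, had the highest mean of all members. It read 0.14, 0.10 and 0.13, and averaged 0.12 ± 0.021 (SD, n = 3), a ratio of 1.33-fold in base 10 and 1.09-fold in base 2. Its 95% interval from limma, not adjusted for the number of genes, ran from 0.032 to 0.21, and its adjusted p was 0.185. Of all tested features 93.9% had a lower mean, so Cox8a was high among members but not unusual among all genes.

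Cox8b, the heart and muscle form of the same subunit, lay at the opposite end. It read −0.45 and −0.43 on arrays 1 and 2 and had no value on array 3. The mean of −0.44 ± 0.014 (SD, n = 2) is 2.75-fold lower in base 10 and 1.36-fold lower in base 2. It was 0.59 and 0.53 below Cox8a on the arrays that measured both. In a fit of the 4930 features with at least 2 arrays, where limma called 40 features (0.811%), its adjusted p was 0.0554. Features with values on arrays 1 and 2 and none on array 3 numbered 1083, had a median of −0.125 over those arrays, and 73 of them were as low as Cox8b or lower. The part of whatever left these spots empty on array 3 in the ratio of Cox8b was not tested.

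The other pair of forms was closer together. Cox6a1, the liver-type form, read 0.055, 0.03 and 0.06, with a mean of 0.048 ± 0.016 (SD, n = 3; limma adjusted p = 0.557). Its probes differed on array 3, where they read 0.14 and −0.02, so the small SD hides a disagreement between spots. Cox6a2, the heart and muscle form, read −0.06, 0.06 and −0.07, with a mean of −0.023 ± 0.072 (limma adjusted p = 0.824) that was 0.01 under block-wise centring. The difference between these forms was 0.115, −0.03 and 0.13 on the 3 arrays, a mean of 0.072 ± 0.088, and did not keep its sign. The 4 measured genes of a muscle marker list had means from −0.10 for Ckm, the muscle creatine kinase, to 0.0067 for Myh4, a muscle myosin, with a median of −0.067. On array 2, where Cox8b read −0.43 and Cox6a2 0.06, all 4 were above 0, with a median of 0.055, and on array 3 all 4 were below 0. The part of muscle cells in the values of Cox6a2 and Cox8b was not tested.

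Cox4i1, the common form of the regulatory subunit that binds ATP, was the only structural subunit of complex IV below 0 on all 3 arrays. It read −0.01, −0.07 and −0.01, with a mean of −0.03 ± 0.035 (SD, n = 3; limma adjusted p = 0.741). It was lower than Cox8a by 0.15, 0.17 and 0.14, a mean difference of 0.15 ± 0.015 (n = 3), a pair picked after the values were seen and not tested. Cox7a2, the liver-type form of another small subunit, read 0.12, −0.09 and 0.00, with a mean of 0.01 ± 0.11 (limma adjusted p = 0.941) that was −0.01 without centring and −0.0067 when centred on the features measured on all 3 arrays.

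Cox5b, a zinc-binding subunit on the matrix side, read 0.04, 0.04 and 0.11, with a mean of 0.063 ± 0.040 (SD, n = 3; limma adjusted p = 0.456). The transcribed pseudogene Cox6c-ps1 read 0.01, 0.06 and 0.14 (mean 0.07 ± 0.066), close to its parent Cox6c on arrays 1 and 2, where Cox6c read 0.02 and 0.07, and 0.11 above it on array 3. The copies are nearly alike in kind, so a probe can bind transcripts of both and their assignment is uncertain. The remaining tested genes were Cox5a, the partner of Cox5b on the matrix side, at 0.057, Cox6c, a membrane subunit, at 0.04 and Cox17, a copper chaperone of assembly, at 0.033. All of them were above 0 on every array, with SDs from 0.015 to 0.038.

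**Figure D3:**
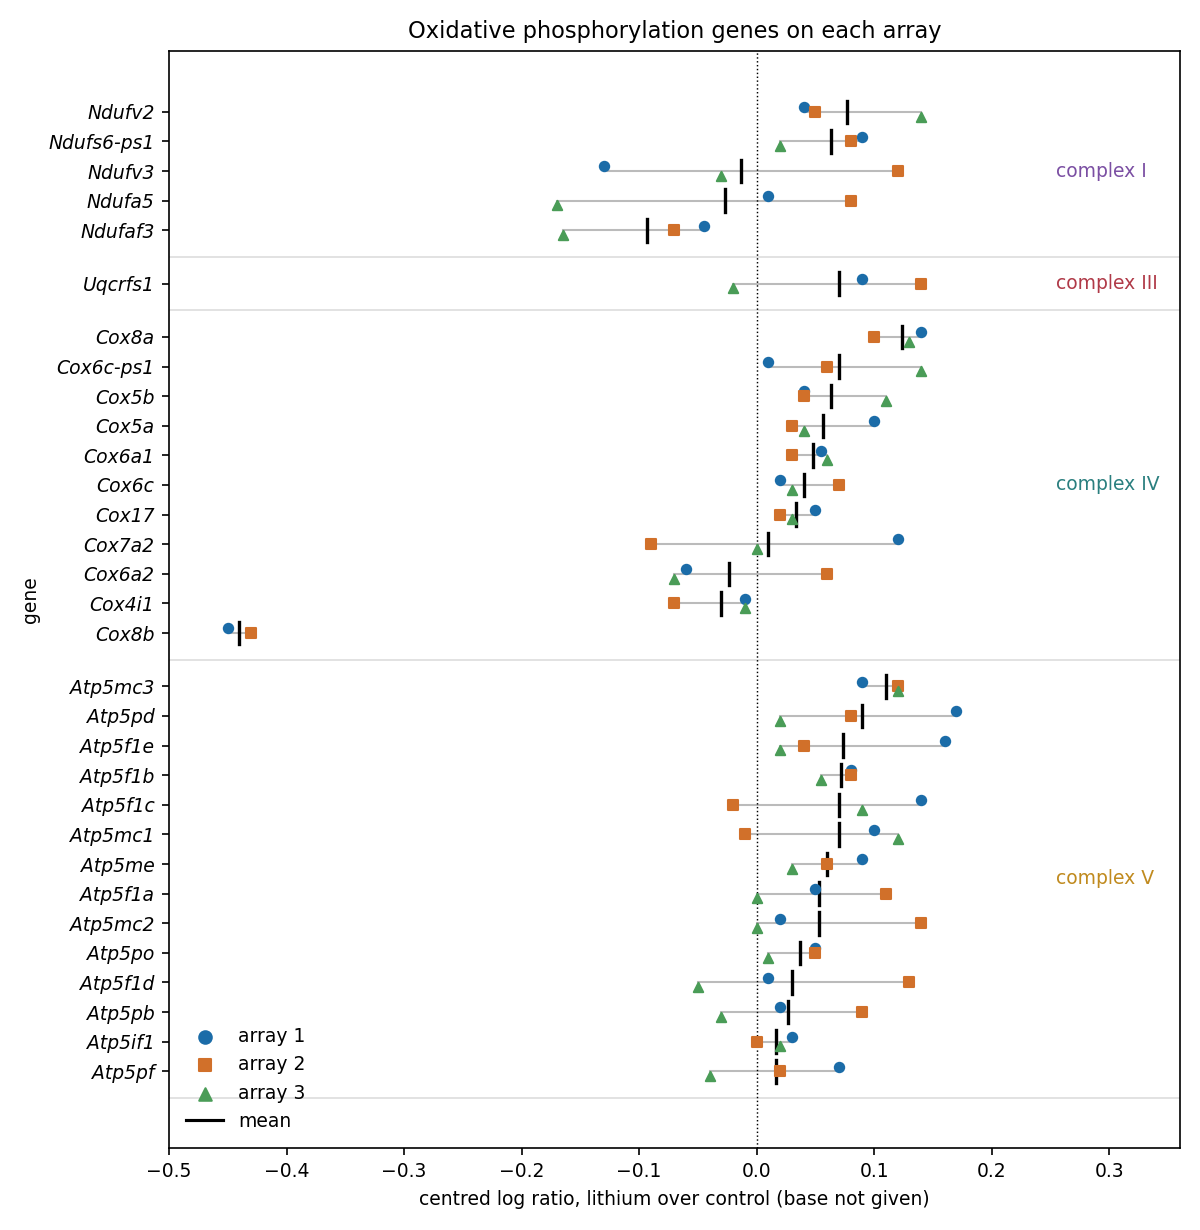
Centred log ratio, lithium over control (base not given, x axis), of each of the 31 members (y axis, grouped by complex) on array 1 (circles), array 2 (squares) and array 3 (triangles), with a black tick at the mean and a grey line over the range. Cox8b, measured on 2 arrays, stands apart at −0.44, and Ndufaf3 and Cox4i1 are the tested members with all points below 0.

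Complex V, ATP synthase, had the most members, and all 14 had a mean above 0 (12 without centring and 13 with block-wise centring), from 0.017 to 0.11. On array 1 all 14 were above 0, on array 2 there were 11, and on array 3 there were 9. The background shares on these arrays were 52.9%, 59.8% and 48.9%. Of the 14, 6 (42.9%) were above 0 on all 3 arrays, against 24.1% of all features.

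The c ring is the rotor in the membrane through which protons pass, and 3 genes encode the same mature c subunit behind different import sequences. Atp5mc3 read 0.09, 0.12 and 0.12, and averaged 0.11 ± 0.017 (SD, n = 3), a ratio of 1.29-fold in base 10 and 1.08-fold in base 2. Its unadjusted 95% interval ran from 0.019 to 0.20, its limma adjusted p was 0.218, and 91.5% of features had a lower mean. Atp5mc1 read 0.10, −0.01 and 0.12, with a mean of 0.07 ± 0.070 (limma adjusted p = 0.449). Atp5mc2 read 0.02, 0.14 and 0.00, with a mean of 0.053 ± 0.076 (limma adjusted p = 0.574). Atp5mc1 was thus low on array 2, where Atp5mc2 was high, and Atp5mc3 was even across arrays. Atp5mc3 exceeded Atp5mc1 by 0.04 ± 0.078 and Atp5mc2 by 0.057 ± 0.071, both less than the spread between arrays.

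The catalytic head is made of alpha subunits (Atp5f1a) and beta subunits (Atp5f1b), the latter holding the sites where ATP is made. Atp5f1b read 0.08, 0.08 and 0.055, with a mean of 0.072 ± 0.014 (SD, n = 3; limma adjusted p = 0.383). Its probes read 0.06, 0.00 and 0.09 for the first and 0.10, 0.16 and 0.02 for the second, so the even gene value is a mean of spots that varied in opposite ways. Atp5f1a read 0.05, 0.11 and 0.00, with a mean of 0.053 ± 0.055 (limma adjusted p = 0.551).

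The central stalk turns with the ring inside the head. Atp5f1e, its epsilon subunit, read 0.16, 0.04 and 0.02, with a mean of 0.073 ± 0.076 (SD, n = 3; limma adjusted p = 0.433), and most of it came from array 1. Atp5f1c, the gamma subunit, had a mean of 0.07 and was below 0 on array 2. Atp5f1d, the delta subunit, had a mean of 0.03 that was −0.02 without array 2.

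The peripheral stalk holds the head still against the turning ring. Atp5pd, its subunit d, read 0.17, 0.08 and 0.02 and had the second highest mean of the complex, 0.09 ± 0.075 (SD, n = 3; limma adjusted p = 0.353). Atp5pb, subunit b, read 0.02, 0.09 and −0.03, with a mean of 0.027 ± 0.060 (limma adjusted p = 0.787) that was −0.005 without array 2. Atp5pf, a coupling factor subunit, read 0.07, 0.02 and −0.04, with a mean of 0.017 ± 0.055 (limma adjusted p = 0.871) that was −0.0033 without centring and −0.017 under block-wise centring. Atp5po, which gives the enzyme its sensitivity to oligomycin, had a mean of 0.037. Ratios of all 4 stalk genes were highest or equal highest on array 1 or 2 and lowest on array 3.

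Atp5if1, the small protein that blocks ATP synthase from running backwards when the membrane potential collapses, read 0.03, 0.00 and 0.02. Its mean was 0.017 ± 0.015 (SD, n = 3; limma adjusted p = 0.861), and −0.0033 without centring. Its 95% interval from −0.074 to 0.11 has an upper bound of 1.28-fold in base 10 and 1.08-fold in base 2. The membrane subunit gene Atp5me had a mean of 0.06 and was above 0 on all 3 arrays.

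Other mitochondrial genes, taken from lists set by symbol, had list medians from −0.0033 to 0.038, and 1 of them, a creatine kinase, passed the test. Over all features 55.7% lay above 0 and 0.445% passed, the shares to set beside the counts of each list. Of 14 genes of the tricarboxylic acid cycle and pyruvate oxidation 0 passed, 10 lay above 0 and 3 below, and the median was 0.033. Dlst, a subunit of the oxoglutarate dehydrogenase complex, read 0.12, 0.10 and 0.13 (limma adjusted p = 0.202), while Pc, pyruvate carboxylase, read −0.17, −0.02 and −0.16 (limma adjusted p = 0.258). Among 5 tested genes of electron entry, carriers and assembly outside the rule 0 passed, and the median was −0.0033. Etfa, which carries electrons from fatty acid oxidation, read 0.18, 0.05 and 0.18 (limma adjusted p = 0.194), and Dhodh, which passes electrons from pyrimidine synthesis, read −0.06, −0.07 and −0.14 (limma adjusted p = 0.311). Cyct, the testis form of cytochrome c, lacked a value on array 3 as Cox8b did and read −0.53 and −0.36 on the others, and Cycs, the common form, read −0.04 and −0.13 there.

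Of 16 tested genes of mitochondrial carriers, pores and creatine kinases 1 passed, 10 lay above 0 and 6 below, and the median was 0.038. Ckmt1, the mitochondrial creatine kinase that passes the energy of ATP to creatine, read 0.41, 0.46 and 0.23, with a mean of 0.37 ± 0.12 (SD, n = 3; limma adjusted p = 0.0476). The mean was 0.32 to 0.435 with an array left out, where limma called 0 of the 3819 features, and the adjusted p of Ckmt1 ran from 0.295 to 0.742. Its limma adjusted p was 0.0467 without centring, 0.031 with block-wise centring, 0.0037 with arrays scaled to the same spread, 0.0025 with a robust prior and 0.00037 with array weights. It was 0.0502 with a single probe per gene, 0.0548 when centred on the features measured on all 3 arrays, 0.0622 with features on at least 2 arrays and 0.399 without the variance prior. Ucp2, an uncoupling protein, read 0.10, 0.16 and 0.07 (limma adjusted p = 0.239). The exchanger genes that bring ADP and phosphate to complex V had means of 0.093 for Slc25a5, 0.047 for Slc25a4 and 0.08 for Slc25a3, all in the range of the complex V genes.

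Among 18 tested genes of mitochondrial biogenesis, DNA and import 0 passed, 13 lay above 0 and 5 below, and the median was 0.015. Mrpl23, of the mitochondrial ribosome, read 0.08, 0.06 and 0.17 (limma adjusted p = 0.271), and Timm8a1, of protein import, read 0.07, 0.06 and 0.14 (limma adjusted p = 0.311). Ppargc1a, the coactivator that drives mitochondrial biogenesis, read 0.23, −0.26 and 0.08, signs that differed between arrays. Nrf1, whose core motif was searched above, read 0.11 and 0.07 on arrays 1 and 2 and had no value on array 3. Of 6 genes of mitochondrial redox defence 0 passed and 3 lay above 0, with a median of 0.013, led by Txn2, the mitochondrial thioredoxin, at 0.13, 0.15 and 0.07 (limma adjusted p = 0.215), and Gpx1, a glutathione peroxidase, at 0.01, 0.16 and 0.09 (limma adjusted p = 0.366). A list of chain subunits encoded by mitochondrial DNA matched 0 genes.

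**Figure D4:**
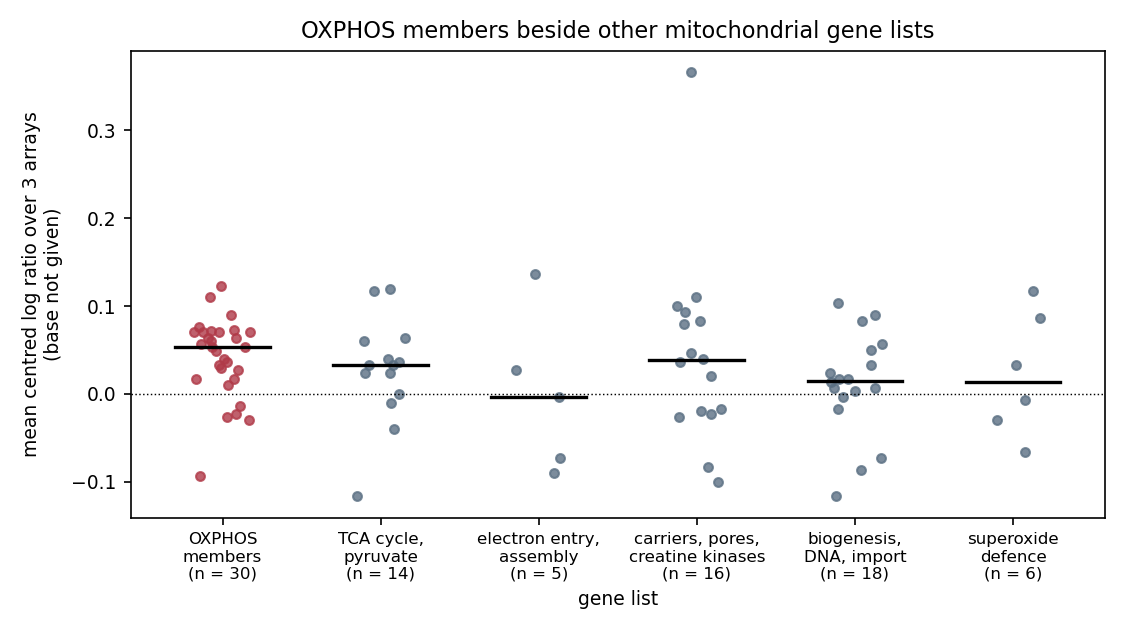
Mean centred log ratio over the 3 arrays (base not given, y axis) of the 30 tested members and of the tested genes of 5 other mitochondrial lists (x axis), 1 point per gene, with a black bar at each median. The point far above the others is Ckmt1 at 0.37, and the members' median of 0.053 is the highest of the 6.

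Markers of the mitochondria-rich cells of neighbouring zones lay on both sides of 0. Of 6 tested proximal tubule markers 5 lay above 0, against 55.7% of all features. Their median was 0.083, with means from −0.01 for Miox to 0.20 for Slc22a6. A further one, Cubn, had no value on array 3 and read −0.22 and −0.36 on the others. Of 3 thick ascending limb markers, Kcnj1 had a mean of 0.20, Egf one of −0.033 and Umod one of −0.18. The 2 tested thin limb markers had a median of −0.15, and the 2 tested intercalated cell markers one of 0.017, while Slc26a4, the intercalated marker without a value on array 3, read −0.25 and −0.20. The 4 leukocyte markers had a median of 0.028 and means from −0.39 to 0.16: Itgam, an integrin of myeloid cells, read −0.55, −0.56 and −0.05 (limma adjusted p = 0.142), and Cd4 read 0.18, 0.12 and 0.18 (limma adjusted p = 0.140). Medians were 0.023 for 5 interstitial markers, with means from −0.14 to 0.10, and 0.04 for the 2 tested endothelial ones, beside which Pecam1 and Vwf averaged 0.005 and −0.055 on arrays 1 and 2. Apart from Hsd11b2 of the principal cells, at 0.49, 0 of the tested markers passed, and the part of any of these cell types in the members' ratios was not tested.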

How the data were processed

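The authors' deposited table held log ratios for 3 arrays, with 2 decimals. Per the labels lithium RNA was red and control RNA green, but which of them is the numerator is not stated. Neither scanner, background correction nor normalization is given in the sources used here, and the log base is unstated. Probes were named from the platform's public annotation: 5064 had 1 symbol, 9 several and 687 were not listed. All 31 members were found in the current rat gene table of assembly GRCr8, with 0 symbols changed.

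Each array's median was subtracted, probes of a gene were averaged per array, and 3819 features measured on all 3 arrays were fitted with limma 3.58.1 in R 4.3.3 (intercept only, eBayes, two-sided, Benjamini-Hochberg over all features, threshold 0.05). The design assumed no log base. The labels number different rats on each array, so replicates were taken as biological. The fit was tested on simulated ratios, where recovery was required only of shifts far larger than any tested member's mean. That check does not show that shifts of the members' size would be found. Tables used pandas 2.3.3 and numpy 2.4.6 in Python 3.11.15, and figures matplotlib 3.10.9.

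Members, gene lists, motifs and the rule for named genes were chosen with earlier results of these data known. Per complex, values are given for the 3 highest and 3 lowest genes, those with several probes and sets of isoforms, and per other list for the 2 smallest p-values. Ndufs6-ps1, Cox6c-ps1, Ndufaf3, Cox17 and Atp5if1 were left out in an alternative chosen after seeing the data. Nrf1, Ppargc1a, Cycs, Cyct, Slc25a3, Slc25a4 and Slc25a5 and the cell type markers shown by name were picked after their values were seen.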

Additional observations from a re-analysis of the deposited data

How the results depend on the processing

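No oxidative phosphorylation gene passed in any setting but array weights, which called 10 members and 1055 features. The count of 17 features became 98 after each array was scaled to a common spread, 94 with a robust prior, 40 with features on at least 2 arrays, 8 without a variance prior and 0 with any array left out, where limma's unadjusted p was under 0.05 for 172, 606 and 445 features without arrays 1, 2 and 3. The median of complex IV was 0.024 without centring, 0.0275 when centred on the features measured on all 3 arrays and 0.054 with block-wise centring, and 0.0375 to 0.059 with an array left out. The median of complex I ran from −0.08 to 0.045 with an array left out. The medians of all members, complex III and complex V moved by less than the SD of their array medians in several settings. These were the other centrings, the scaling, features on at least 2 arrays and a single probe per gene. With each array left out, the medians of all members and complex V did so too. For complex III, a single gene, leaving out 1 of 3 arrays cannot move the mean by its SD. That mean ran from 0.035 to 0.115. With array weights, a planned setting in which only the medians were added after the values were seen, all of these medians also moved by less than the SD. They were 0.050 for all members, 0.081 for complex III and 0.066 for complex V. The variance priors leave the means as they are. Signs of small means turned: without centring Atp5if1 and Atp5pf (−0.0033 each) and Cox7a2 (−0.01), centred on the features measured on all 3 arrays Cox7a2 (−0.0067), and with block-wise centring Atp5pf (−0.017) and Cox6a2 (0.01). With an array left out, the mean ran from −0.01 to 0.045 for Atp5pf, −0.045 to 0.06 for Cox7a2, −0.08 to 0.045 for Ndufv3, −0.02 to 0.07 for Atp5f1d, −0.005 to 0.055 for Atp5pb and −0.08 to 0.045 for Ndufa5. The cause of these changes was not tested. Lithium and control RNA share each array, so each ratio is already a pair and the fit is itself a paired analysis. Background correction, an intensity filter and a slide block could not be varied with ratios alone, and signal over background is unknown.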
